A study of Mus musculus with 18 samples.

Results

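The growth hormone and IGF axis was followed in mouse liver through 10 genes, chosen by their names in the expression table, which lists 37303 genes: Ghr, Prlr, Socs2, Cish, Igf1, Igfals, Igfbp1, Igfbp2, Igfbp3 and Igfbp4. Poly-A RNA was sequenced from the livers of 18 mice on a C57BL/6J background, in 6 groups of 3. WT mice, mice without Gcn2 in the whole body (Gcn2-/-) and mice without Atf4 in the whole body (Atf4-/-) each received PBS or asparaginase (ASNase), the bacterial enzyme drug that depletes asparagine and, less strongly, glutamine from blood. ASNase was given at 3 IU per gram body weight in 8 daily intraperitoneal injections, PBS mice were injected in the same way, and livers were taken 7.5 h after the last injection by the labels. The mice were at least 8 weeks old, with an upper age of 16 weeks in one label and 12 weeks in another. GCN2 is the eIF2 kinase that senses amino acid shortage, and ATF4 is the transcription factor whose translation follows from eIF2 phosphorylation. Both deletions were present in every cell of the animal, so a value from liver cannot separate a loss in hepatocytes from one elsewhere in the body.

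Growth hormone reaches hepatocytes from the pituitary, binds the growth hormone receptor and acts through the kinase JAK2 on STAT5, which switches on Igf1, Igfals and the feedback inhibitors Socs2 and Cish. IGF-1 made in liver circulates mostly in a complex with IGFBP3 or IGFBP5 and the acid labile subunit encoded by Igfals, which keeps it in the blood. The small binding proteins IGFBP1 and IGFBP2 hold IGF-1 outside that complex. IGFBP1 is well known to be made when insulin is low or the liver is under stress, and the liver loses sensitivity to growth hormone in malnutrition and inflammation.

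All 10 genes had the status OK and a value above 0 in all 6 groups. The table holds 1 value per group, the FPKM (read number scaled by transcript length and sequencing depth) that Cuffdiff estimated from its 3 libraries, with a lower and an upper bound. There is no value per mouse, so no SD and no p-value could be given, and the depth behind a value is not known from the table. Where a range stands in parentheses after a value, it is this Cuffdiff interval. FPKM is per length, so levels can be set side by side between genes. Groups were compared as the difference of log2(FPKM + 0.1), a scale that understates the fold of low genes. A difference was called when it was larger than 1.5 in size, with an FPKM over 3 in either group and intervals free of overlap. All genes of the table went through the same rule, and the share of them that was called is given beside the counts of the members and of the other gene lists.

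Per the labels, WT PBS, Gcn2-/- PBS and Gcn2-/- ASNase each held 1 male among 3 mice, and WT ASNase, Atf4-/- PBS and Atf4-/- ASNase each held 2. The Y-linked gene Eif2s3y lay between 11 and 13.1 FPKM in the groups with 1 male and between 18.3 and 26.4 FPKM in those with 2. Growth hormone acts differently on male and female liver, and in WT the effect of ASNase cannot be told apart from that of the additional male. Within Gcn2-/- and within Atf4-/-, the PBS and ASNase groups had the same number of males. Where a group held 1 male or 1 female, the pooled value of a gene biased to that sex can rest largely on 1 mouse. Between strains, the males were 1 and 2 in Gcn2-/- and WT under ASNase, and 2 and 1 in Atf4-/- and WT under PBS. In these comparisons the effect of the knockout cannot be told apart from that of the number of males. Atf4 itself was 29.3 and 32.3 FPKM in the Atf4-/- groups against 50.4 to 68.1 in the other 4. Eif2ak4, the gene of GCN2, was 2.31 and 2.96 FPKM in the Gcn2-/- groups, inside the range of the other 4 (2.19 to 3.14), and a value over the whole gene does not show whether part of it was deleted. The paper reports both deletions from plots of the RNA reads. In these an exon of Gcn2 was missing in Gcn2-/- mice, and Atf4 was missing in Atf4-/- mice. Markers of other tissues differed between groups: 8 skeletal muscle genes summed to 807 and 1158 FPKM in WT, 5.78 and 8.85 in Gcn2-/- and 65.0 and 143 in Atf4-/-, and 8 pancreatic acinar genes summed to 64.6 in WT ASNase and 335 in Atf4-/- ASNase but to 5.47 to 15.9 in the other 4 groups.

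In WT livers ASNase left all 10 genes within the intervals of PBS. In Gcn2-/- livers Igfals and Igfbp2 were called lower after ASNase. In Atf4-/- livers Ghr, Igfals and Igfbp2 were called lower, and Igfbp1 had the largest positive difference of the axis. Without ASNase none of the 10 was called between either knockout and WT. After ASNase, Igfbp2 was called lower in Gcn2-/- than in WT, and in Atf4-/- livers Ghr, Igfals and Igfbp2 were called lower and Igfbp1 higher than in WT.

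Counted over the axis, the members' numbers can be read against the whole table. ASNase in WT gave 0 of 10 members called, where 0.76% of all eligible genes were called higher and 0.121% lower, and the members' median log2 difference was -0.08 beside -0.01 for all. In Gcn2-/- livers 2 of 10 members were called lower and 0 higher after ASNase, where 2.13% of all eligible genes were called lower and 1.56% higher, and the median was -1.07 beside 0.02. In Atf4-/- livers 3 of 10 were called lower and 0 higher, where 4.63% of all were called lower and 2.74% higher, and the median was -0.86 beside 0.08. The members that made up these counts were Igfals and Igfbp2 in both, and Ghr in Atf4-/- alone.

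Between strains under PBS 0 of 10 were called in Gcn2-/- against WT, where 0.392% of all genes were called higher and 0.65% lower, with a median of 0.35 beside 0.06 and 9 of 10 values on the higher side. In Atf4-/- against WT under PBS 0 of 10 were called, where 0.354% of all were called higher and 0.763% lower, with a median of 0.14 beside 0.00. After ASNase 1 of 10 was called lower in Gcn2-/- than in WT, where 2.59% of all were called lower and 1.83% higher. In Atf4-/- against WT after ASNase 3 of 10 were called lower and 1 higher, where 5.66% of all were called lower and 2.59% higher. The comparisons are not independent of each other, since WT PBS and WT ASNase each enter 3 of the 7 and each knockout group enters 2.

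**Figure D1:**
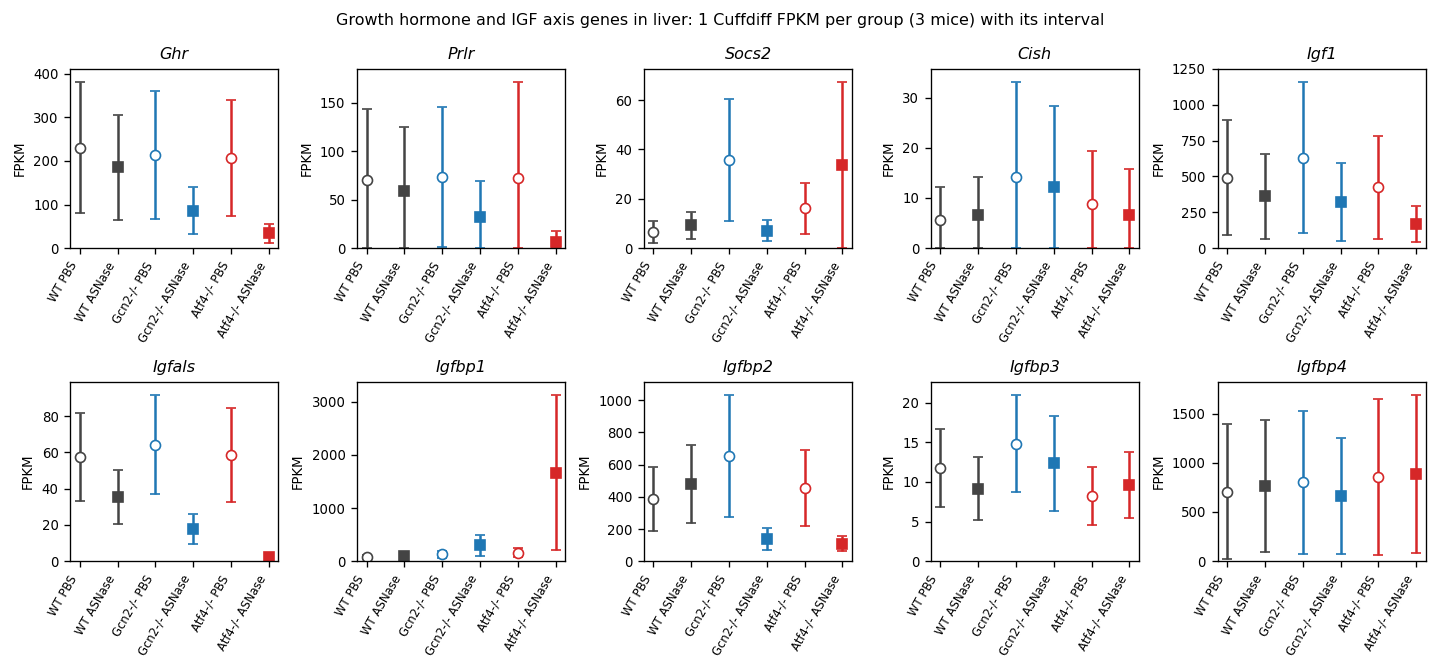
Level of each gene (FPKM, linear axis from 0) in the 6 groups, with 1 point per group of 3 mice and bars that span the Cuffdiff interval. Open circles are PBS, filled squares ASNase, grey WT, blue Gcn2-/- and red Atf4-/-. Igfals falls to 2.52 FPKM and Ghr to 33.7 FPKM in Atf4-/- ASNase, where Igfbp1 reaches 1663 FPKM.

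The growth hormone receptor gene Ghr lies on chr15:3317760-3583492 (GRCm38, minus strand). Its level was 231 FPKM (80.2 to 381) in WT PBS and 185 (65.5 to 305) in WT ASNase. It was 213 FPKM (65.9 to 360) in Gcn2-/- PBS and 86.2 (32.5 to 140) in Gcn2-/- ASNase, and 207 (72.7 to 341) in Atf4-/- PBS and 33.7 (12.5 to 54.9) in Atf4-/- ASNase. The 3 PBS groups and WT ASNase lay close together, Gcn2-/- ASNase lay under them with overlapping intervals, and Atf4-/- ASNase lay apart. The receptor mRNA was 6.14-fold lower after ASNase in Atf4-/- livers (log2 difference -2.61, called) and 5.49-fold lower than in WT after ASNase (-2.45, called). In Gcn2-/- livers the ASNase difference was -1.31 and in WT livers -0.32, neither called. The response of Atf4-/- thus lay -2.30 log2 units from that of WT and the response of Gcn2-/- -0.99, values for which there is no test. Of the 15 pairs of groups, 4 had separate intervals, all of them with Atf4-/- ASNase, while Gcn2-/- ASNase and Atf4-/- ASNase overlapped. In these bulk livers, fewer cells of a type and less RNA per cell cannot be told apart. The 10 hepatocyte markers bear on this, and 9 were eligible in either knockout. After ASNase 7 had lower values in Gcn2-/- (median -0.74) and 7 in Atf4-/- (median -0.67). Their intervals were wide and 0 were called, where 2.13% and 4.63% of all eligible genes were called lower and 1.56% and 2.74% higher. Past the fold limit without separate intervals were Apoa1 (-1.69), Ttr (-1.501) and Tat (1.70) in Gcn2-/-, and Ttr (-2.05) and Cyp2e1 (-1.98) in Atf4-/-. The part of these markers in the lower Ghr was not tested.

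The prolactin receptor gene Prlr (chr15:10177238-10349180, plus strand), whose product belongs to the same class I cytokine receptor family and also signals through JAK2 and STAT5, was 70.4 FPKM (0 to 143) in WT PBS and 58.3 (0 to 125) in WT ASNase. It was 73.4 FPKM (1.5 to 145) and 32.4 (0 to 69.1) in Gcn2-/- PBS and ASNase, and 71.8 (0 to 171) and 6.64 (0 to 17.5) in Atf4-/- PBS and ASNase. The order of the groups after ASNase was the one seen for Ghr. The value was 10.8-fold lower after ASNase in Atf4-/- (log2 difference -3.42), past the fold limit, but the intervals were so wide that all 15 pairs of groups overlapped and nothing was called. Over the 6 groups Prlr was the member most like Ghr, with a root mean square difference of 0.30 between their centred log2 values, and the ratio of Ghr to Prlr lay between 2.66 and 5.08 in all groups.

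Of 10 other receptor genes of this class, 8 were eligible in either knockout, and after ASNase 1 was called higher and 1 lower in Gcn2-/- and again 1 higher and 1 lower in Atf4-/-. Over all eligible genes 1.56% were called higher and 2.13% lower in Gcn2-/-, and 2.74% and 4.63% in Atf4-/-. The one called lower was Lifr, the receptor of leukemia inhibitory factor, at 99.3 FPKM under PBS and 12.7 after ASNase in Gcn2-/- (-2.96) and at 103 and 7.39 in Atf4-/- (-3.79). The one called higher was Osmr, the oncostatin M receptor, at 0.714 and 3.42 FPKM in Gcn2-/- (2.11) and at 1.04 and 9.22 in Atf4-/- (3.03). After ASNase, Il13ra1 was also called higher in Atf4-/- than in WT (1.62).

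Socs2, on chr10:95385362-95417180 (minus strand), encodes the SOCS protein that restrains growth hormone signalling and is itself switched on by it. It did not follow the receptor. Under PBS it was 6.61 FPKM (2.19 to 11) in WT, 35.7 (10.9 to 60.5) in Gcn2-/- and 16.1 (5.67 to 26.6) in Atf4-/-. After ASNase it was 9.14 FPKM (3.54 to 14.7) in WT, 6.97 (2.66 to 11.3) in Gcn2-/- and 33.7 (0.173 to 67.3) in Atf4-/-. The highest values were thus those of Gcn2-/- PBS and Atf4-/- ASNase. Neighbouring intervals overlapped by little: the lower bound in Gcn2-/- PBS was 10.9 FPKM and the upper bound in WT PBS 11. No pair of groups was separate, so the differences of 2.42 (Gcn2-/- against WT under PBS), -2.34 (ASNase in Gcn2-/-) and 1.06 (ASNase in Atf4-/-) were not called. The first 2 did exceed the root of the summed squared half-widths of their intervals, and would be called by that milder condition. The ASNase responses of the knockouts had opposite signs, and the difference between them was 3.40 log2 units, which was not tested.

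Cish, on chr9:107296026-107302784 (plus strand), encodes the other STAT5-induced feedback inhibitor. It ranged from 5.50 FPKM in WT PBS to 14.2 in Gcn2-/- PBS, and 0 of 15 pairs were separate. With a lower bound of 0 in all 6 groups no pair could be separate, so Cish could not be called, though it counts among the members. Both Gcn2-/- groups had the highest values (14.2 and 12.1 FPKM), and the ASNase difference of WT was 0.23, that of Gcn2-/- -0.23 and that of Atf4-/- -0.40. The gene with the pattern most like that of Cish was Id2, at a root mean square difference of 0.14.

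Other feedback inhibitors of the receptor were called. Socs3, the inhibitor induced by STAT3 and cytokines, was 3.36 and 2.57 FPKM in WT PBS and ASNase, 4.93 (1.43 to 8.44) and 26.8 (11.9 to 41.7) in Gcn2-/- PBS and ASNase, and 7.23 (2.40 to 12.1) and 56.6 (20.1 to 93.1) in the same groups of Atf4-/-. Both knockouts were thus above their own PBS group and above WT after ASNase, with separate intervals. Socs1 was called higher after ASNase in Atf4-/-, from 0.429 to 6.90 FPKM (3.73), and so was Ptpn2, a phosphatase that acts on JAK kinases, from 7.58 to 24.0 FPKM (1.65). Of the 16 genes of receptor signalling beside the members, 12 were eligible in Gcn2-/- with 1 called higher after ASNase, and 15 in Atf4-/- with 3 called higher. The shares of all eligible genes called higher were 1.56% and 2.74%. In neither knockout was a gene of this list called lower, and 0 of 14 were called in WT. The kinase gene Jak2 lay between 3.21 and 4.72 FPKM and Stat5b between 7.46 and 12.4 in all 6 groups, and neither was called anywhere, while Stat3 was 44.2 FPKM in Atf4-/- PBS and 120 in Atf4-/- ASNase with overlapping intervals.

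Igf1, the hormone gene itself (chr10:87858265-87937042, plus strand), was the most abundant of the STAT5 targets among the members. It was 490 FPKM (88.5 to 891) in WT PBS and 361 (64.8 to 658) in WT ASNase. The Gcn2-/- values were 630 FPKM (102 to 1159) with PBS and 322 (46.5 to 597) with ASNase, and the Atf4-/- values 424 (63.1 to 786) with PBS and 168 (41.2 to 296) with ASNase. The ASNase value was the lower one in all 3 strains, and the ASNase groups stood in the order WT, Gcn2-/-, Atf4-/-, as for Ghr. The differences were -0.44, -0.97 and -1.33, all under the fold limit, and all 15 pairs of intervals overlapped.

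Igfals, on chr17:24865997-24882010 in GENCODE (plus strand; the table counts it from base 24878770), is made almost only by hepatocytes. It was 57.2 FPKM (33.0 to 81.5) in WT PBS and 35.5 (20.8 to 50.2) in WT ASNase. It was 64.3 FPKM (37.1 to 91.5) in Gcn2-/- PBS and 17.7 (9.36 to 26.1) in Gcn2-/- ASNase, and 58.8 (32.9 to 84.7) in Atf4-/- PBS and 2.52 (1.11 to 3.94) in Atf4-/- ASNase. The 3 PBS groups were alike, and the ASNase groups lay below them in 3 steps, the last of which was separate from all other groups. The gene was 3.62-fold lower after ASNase in Gcn2-/- (log2 difference -1.85, called), 23.3-fold lower in Atf4-/- (-4.49, called) and 1.61-fold lower in WT (-0.69, not called). Against WT after ASNase it was 14.1-fold lower in Atf4-/- (-3.76, called) and 2.0-fold lower in Gcn2-/- (-1.0, not called). The response of Atf4-/- was larger than that of WT by 3.80 log2 units and that of Gcn2-/- by 1.16, differences given as values without a test. In order of size, the Atf4-/- response was the 54th lowest of 9485 eligible genes, and 8 of the 15 pairs of groups were separate, more than for any other member.

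Igfbp3, which encodes the main carrier protein of the circulating complex, lies on chr11:7206086-7213923 (minus strand). It ranged only from 8.22 FPKM in Atf4-/- PBS to 14.8 in Gcn2-/- PBS, with absolute log2 differences of at most 0.51 in the 7 comparisons, and 0 of 15 pairs were separate. In liver this gene is known from sinusoidal and other non-parenchymal cells rather than hepatocytes. The summed level of 8 sinusoidal endothelial markers was 81.7 and 83.4 FPKM in the Gcn2-/- groups and 122 to 179 in the other 4, and its part in the Igfbp3 values was not tested. Since Igf1 differed less than Igfals, the ratio of Igf1 to Igfals mRNA was 7.22 to 10.2 in the 3 PBS groups and WT ASNase, 18.1 in Gcn2-/- ASNase and 66.7 in Atf4-/- ASNase.

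Igfbp1 lies on chr11:7197782-7202546 (plus strand), with 3539 bases between its end and that of Igfbp3, which is read from the opposite strand. Under PBS it was 83.7 FPKM (46.6 to 121) in WT, 127 (65.2 to 188) in Gcn2-/- and 161 (78.0 to 245) in Atf4-/-. After ASNase it was 98.1 FPKM (53.6 to 142) in WT, 298 (96.0 to 501) in Gcn2-/- and 1663 (203 to 3123) in Atf4-/-. The ASNase groups stood in the reverse of the order seen for Ghr, Igf1 and Igfals. After ASNase the gene was 17.0-fold higher in Atf4-/- than in WT (log2 difference 4.08, called), which was the 44th highest of 9577 eligible genes. Against its own PBS group it was 10.3-fold higher in Atf4-/- (3.36), but there the intervals overlapped, since the upper bound under PBS was 245 FPKM and the lower bound after ASNase 203, and it would be called by the milder condition just named for Socs2. In Gcn2-/- the ASNase difference was 1.24 and in WT 0.23, neither called, so that the response exceeded that of WT by 3.14 log2 units in Atf4-/- and by 1.01 in Gcn2-/-, without a test. Among all listed genes Igfbp1 stood at place 1047 from the top in WT PBS and at place 56 in Atf4-/- ASNase, while the intervals of its neighbour Igfbp3 overlapped in every pair of groups.

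Igfbp2, on chr1:72824503-72852474 (plus strand), was 386 FPKM (189 to 583) in WT PBS and 478 (235 to 721) in WT ASNase. It was 654 (278 to 1031) and 135 (66.9 to 204) in Gcn2-/- PBS and ASNase, and 455 (217 to 694) and 108 (61.4 to 155) in Atf4-/- PBS and ASNase. The values of both knockouts after ASNase lay together at the bottom and those of the other 4 groups above them, and no other member was called in all 4 comparisons that a knockout ASNase group enters. The gene was 4.84-fold lower after ASNase in Gcn2-/- (-2.27) and 4.22-fold lower in Atf4-/- (-2.08), and 3.53-fold and 4.43-fold lower than in WT after ASNase (-1.82 and -2.14). The ASNase responses of the knockouts differed from each other by 0.20 log2 units and from that of WT, which was 0.31, by -2.58 in Gcn2-/- and -2.38 in Atf4-/-. Of the 15 pairs of groups, 7 were separate, and WT PBS and Gcn2-/- ASNase were not among them. The genes most like Igfbp2 over the 6 groups were Hdac11, Bbox1 and Gas2, at root mean square differences of 0.14, 0.15 and 0.17.

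Igfbp4 (chr11:99041244-99054392, plus strand) was the steadiest member, at 661 FPKM in Gcn2-/- ASNase to 882 in Atf4-/- ASNase, with differences of at most 0.28 in size. Its interval was wide, from 78.4 to 1686 FPKM in Atf4-/- ASNase, and 0 of 15 pairs were separate. As FPKM per length, Igfbp4 made up 59.5% of the summed mRNA of the 4 binding protein genes in WT PBS, Igfbp2 32.4%, Igfbp1 7.04% and Igfbp3 0.988%. In Gcn2-/- ASNase, Igfbp1 made up 26.9% and Igfbp2 12.2%. In Atf4-/- ASNase, Igfbp1 made up 62.5%, Igfbp2 4.06% and Igfbp4 33.1%. The sum of the 4 was 2663 FPKM there and 1107 to 1595 in the other 5 groups. The ratio of Igfbp1 to Igf1 mRNA in WT was 0.171 with PBS and 0.271 with ASNase, and after ASNase it was 0.927 in Gcn2-/- and 9.87 in Atf4-/-.

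**Figure D2:**
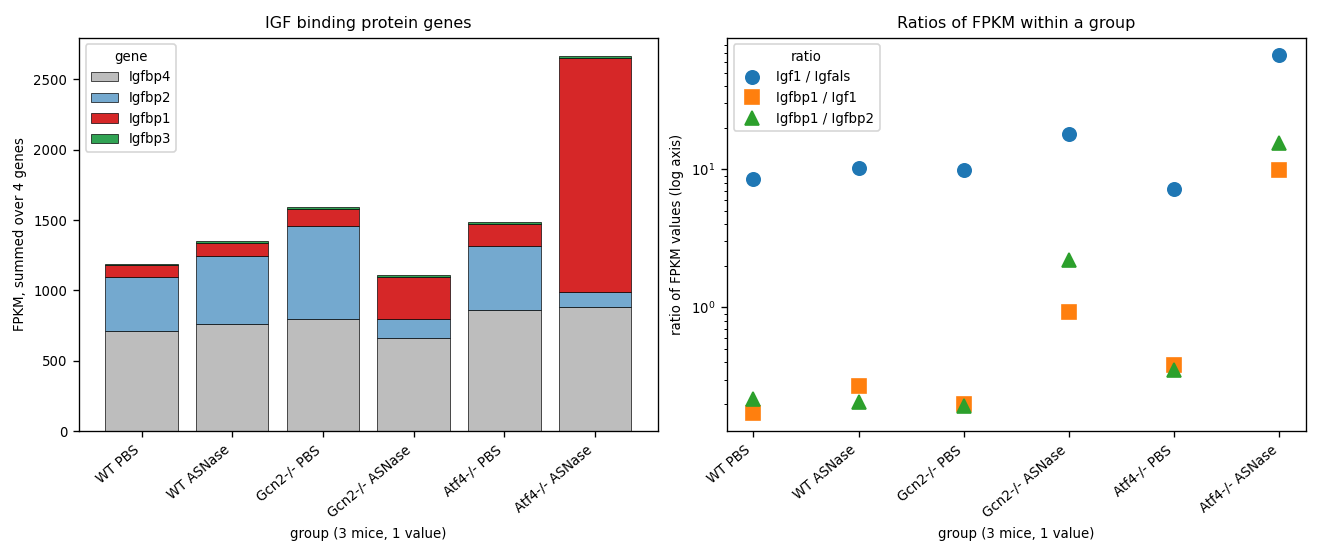
Left, FPKM of the 4 IGF binding protein genes stacked by group (linear axis from 0, no error drawn). Right, ratios of FPKM values within a group on a log axis, which set Igf1 against Igfals and Igfbp1 against Igf1 and Igfbp2. Igfbp1 takes 62.5% of the stack and the ratio of Igfbp1 to Igfbp2 is 15.4 in Atf4-/- ASNase, against 0.194 to 0.355 in the PBS groups.

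**Figure D3:**
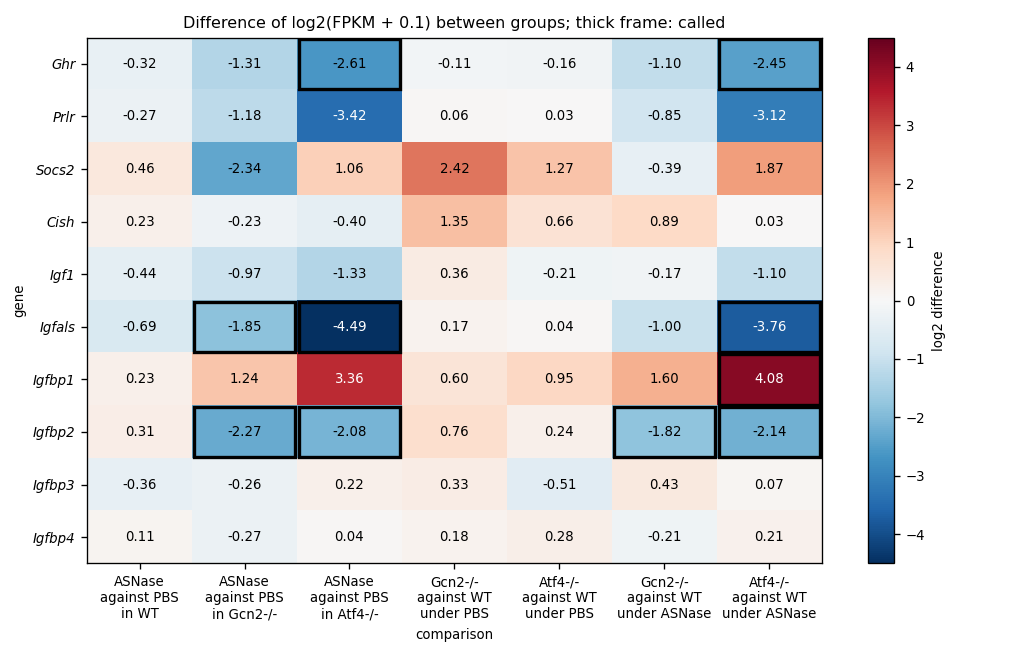
Differences of log2(FPKM + 0.1) for the 10 genes (rows) in the 7 comparisons (columns), with the value in each cell and a thick frame where the difference was called. Of the 10 framed cells, 9 are negative and 1, Igfbp1 in Atf4-/- against WT under ASNase (4.08), is positive, and none lies in the WT response or in the PBS comparisons.

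Ghr, Prlr, Igf1 and Igfals had similar patterns over the 6 groups. Pearson's r of their log2 values was 0.996 for Prlr and Igfals, 0.986 for Ghr and Prlr, 0.987 for Ghr and Igfals and 0.929 for Ghr and Igf1, and it was -0.971 for Ghr and Igfbp1. These describe 6 group values that come from one set of libraries and in which a single group, Atf4-/- ASNase, holds most of the spread. Outside the axis, the 3 genes nearest to Ghr among 10171 were Cyp4f15, Bphl and Sgk2, at root mean square differences of 0.09 to 0.10. Those nearest to Prlr were Hsd11b1, Lipc and Serpinb8 (0.08 to 0.09), those nearest to Igf1 were Ttc36, Pion and Sepx1 (0.10 each), and those nearest to Igfals were Ccnd1, Nr0b2 and Akr1c6 (0.16 to 0.21). Hsd11b1, the enzyme that regenerates glucocorticoid inside cells, had for example 412 and 349 FPKM in WT, 439 and 167 in Gcn2-/- and 424 and 38.1 in Atf4-/- under PBS and ASNase. Socs2 and Igfbp1 had no near match, since their nearest genes, 3110082I17Rik and Socs1, lay at 0.40 and 0.34. The nearest genes of Igfbp3 (Ndufa2, 2010305A19Rik and Rfc3) and Igfbp4 (Fam63b, Fcho2 and Fbxo11) lay at 0.05 to 0.07, as flat patterns do.

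Promoter sequence was at hand from RefSeq (GRCm38.p6) for 9 of the 10 members, in 15 windows from 250 bases before to 50 after a gene start. Socs2 had no entry. The window of Igfbp1 is shown because this gene had the largest positive difference of the axis. The stretch below is chr11:7197637-7197766 on the plus strand, which is base -150 to -21 from the start, and the capitals mark the insulin response motif CAAAACA, through which FOXO factors are known to act.
Igfbp1: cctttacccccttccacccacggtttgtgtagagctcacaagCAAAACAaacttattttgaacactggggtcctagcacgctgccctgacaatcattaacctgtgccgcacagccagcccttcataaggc
This motif was held, on either strand, by 6.28% of all 32851 windows and by 2 of the 15 windows of the members, 1 of Igfbp1 and 1 of Prlr.

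The STAT5 motif TTCNNNGAA reads the same on both strands and was held by 8.30% of all windows. It was found in 4 of the 15 windows of the members, which belong to Igfals, Prlr and Cish. The lines below show it in capitals, for Igfals at chr17:24877597-24877626 and chr17:24878162-24878191 before 2 different gene starts, for Prlr at chr15:10223785-10223814 and for Cish, where 2 copies follow each other at the start, at chr9:107296654-107296683, all on the plus strand.
Igfals, from base -247: cgatctataatTTCTCAGAAaagaggctga
Igfals, from base -69: tctgccaggtgTTCCTAGAAgaggccctgg
Prlr, from base -121: ggcaaaatgagTTCTAGGAAtaagggatat
Cish, from base -5: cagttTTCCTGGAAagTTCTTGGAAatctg
Of these genes Igfals was called lower after ASNase in both knockouts, Prlr was past the fold limit in Atf4-/- without separate intervals, and Cish stayed within 0.40 log2 units in every strain. The motif bound by heterodimers of C/EBP proteins with ATF4, TGATGNAA, was held by 3.97% of all windows and by 0 of the 15 windows of the members. A match is a run of letters, and its absence says only that these letters are not in these windows.

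Liver genes that differ between male and female mice are known to depend on the sex pattern of growth hormone secretion, and they were counted beside the members. Of 20 male-biased genes, 17 were eligible in either knockout after ASNase, and 9 were called lower in Gcn2-/- (median -2.15) and 13 in Atf4-/- (median -4.18), with 0 called higher in both. Over all eligible genes 2.13% and 4.63% were called lower. In WT 0 of 16 were called (median -0.11). WT PBS and both Gcn2-/- groups held 1 male each, so a male-biased value there can rest largely on 1 mouse. Beside those described next, Cyp4a12a, Cyp4a12b, Mup21, Nudt7, Selenbp2 and Ugt2b1 were called lower in both knockouts, Cyp7b1 in Gcn2-/- and C6, Elovl3, Gstp1, Mup20 and Susd4 in Atf4-/-. Against WT after ASNase, 11 of 16 eligible male-biased genes were called lower in Gcn2-/- (median -3.02) and 0 higher. In Atf4-/- 12 of 17 were called lower than in WT (median -3.62) and 1, Moxd1, higher, at 4.14 and 0.0770 FPKM. Over all eligible genes 2.59% were called lower and 1.83% higher in Gcn2-/-, and 5.66% and 2.59% in Atf4-/-. Moxd1 was also 4.19 log2 units higher in Atf4-/- than in WT under PBS, where it was not eligible. The bile acid and steroid transporter Slco1a1 was 103 and 106 FPKM in WT PBS and ASNase, 32.1 (15.7 to 48.6) and 1.30 (0.507 to 2.1) in Gcn2-/- PBS and ASNase, and 124 (53.8 to 195) and 0.945 (0.361 to 1.53) in the same groups of Atf4-/-. Hsd3b5, a steroid dehydrogenase, was 13.1 and 0.180 FPKM in Gcn2-/- and 105 and 0.167 in Atf4-/- under PBS and ASNase. Both were thus called lower after ASNase in each knockout. Mup and Cyp4a12 genes, which belong to near-identical families whose reads may be shared, are among the list, and Mup1, Mup7 and Mup11 are listed at 0 in the WT groups and in Atf4-/- PBS.

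Of 20 female-biased genes, 15 were eligible in Gcn2-/-, with 5 called lower and 0 higher after ASNase (median -1.0). In Atf4-/- 17 were eligible, with 6 called lower (median -2.13) and 1, the oxysterol hydroxylase Cyp39a1, called higher. Of all eligible genes 2.13% were called lower and 1.56% higher in Gcn2-/-, and 4.63% and 2.74% in Atf4-/-. A1bg, Abcd2 and Acot3 were called lower in both knockouts, Cyp2a4 and Hao2 in Gcn2-/-, and Cyp2b13, Cyp3a16 and Sult3a1 in Atf4-/-. A1bg, a plasma protein gene of female liver, was 62.1 and 10.1 FPKM in Gcn2-/- and 42.7 and 0.0922 in Atf4-/- under PBS and ASNase. In WT Sult3a1 alone was called, lower after ASNase (30.2 and 1.73 FPKM), where 0.121% of all eligible genes were called lower. WT PBS held 2 females and WT ASNase 1. Under PBS, 15 of 16 male-biased values were lower in Gcn2-/- than in WT (median -1.43) with 1 male in each group, and Elovl3, a fatty acid elongase, was called lower (54.0 and 2.84 FPKM in WT and Gcn2-/-), while 0 of 15 female-biased genes were called (median 0.44). Of all eligible genes 0.65% were called lower and 0.392% higher. In Atf4-/- against WT under PBS, where the males were 2 and 1, 0 of 16 male-biased genes were called (median 0.28). Of 18 female-biased genes there 3 were called higher, the cytochrome P450 genes Cyp3a16 (72.2 and 0.322 FPKM in Atf4-/- and WT), Cyp3a41a (20.8 and 1.09) and Cyp3a44 (19.3 and 2.96), and 1 lower, Hao2 (1.11 and 7.83), where 0.354% of all genes were called higher and 0.763% lower. The Cyp3a genes are close copies of each other whose reads may be shared. After ASNase, 2 of 16 eligible female-biased genes were called higher in Atf4-/- than in WT, Cyp3a16 and Cyp3a41a. Another 6 were called lower there, A1bg, Abcd2, Acot3, Cyp17a1, Cyp2b13 and Hao2. In Gcn2-/- 4 of 15 were called lower than in WT after ASNase, Abcd2, Acot3, Cyp3a44 and Hao2, and 0 higher. Of all eligible genes 5.66% were called lower and 2.59% higher in Atf4-/-, and 2.59% and 1.83% in Gcn2-/-.

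**Figure D4:**
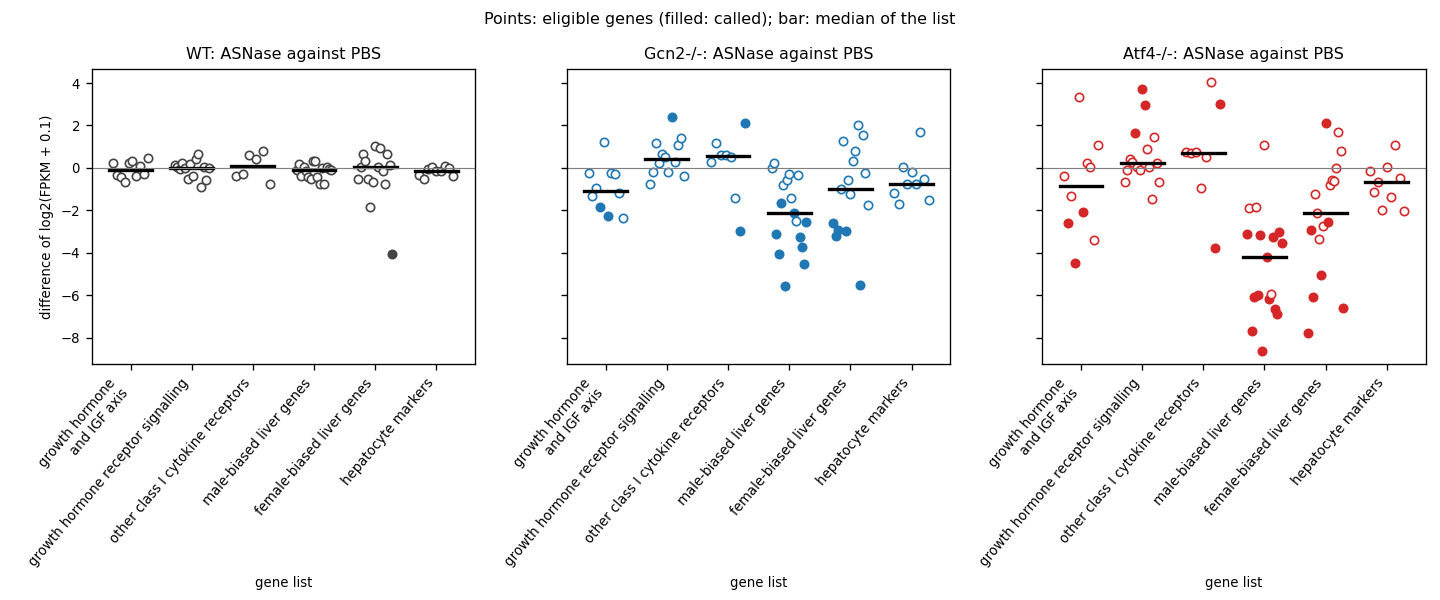
Difference of log2(FPKM + 0.1) between ASNase and PBS for the eligible genes of 6 lists in WT (grey), Gcn2-/- (blue) and Atf4-/- (red), with filled points for called genes and a bar at the list's median. In the WT panel 1 gene is called, Sult3a1 of the female-biased list, and the male-biased genes reach medians of -2.15 in Gcn2-/- and -4.18 in Atf4-/-.

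Few of the other genes of the IGF system reached the FPKM limit. Of 14 such genes, 4 were eligible in each ASNase response and 0 were called in any strain. Over all eligible genes 0.76% were called higher and 0.121% lower in WT, 1.56% and 2.13% in Gcn2-/-, and 2.74% and 4.63% in Atf4-/-. With 4 genes, a count of 0 cannot be told apart from these shares. Igf1r, the IGF-1 receptor, lay between 0.121 and 0.402 FPKM in all groups and Insr, the insulin receptor, between 13.7 and 20.3. After ASNase, Irs2, the insulin receptor substrate, was called higher in Atf4-/- than in WT (16.0 and 2.67 FPKM, 2.55), and Igfbp5, a carrier of the circulating complex, was called lower in Gcn2-/- than in WT (1.1 and 3.91 FPKM, -1.74). In each comparison this was 1 of 5 eligible genes of the list. Of all eligible genes 2.59% were called higher and 5.66% lower in Atf4-/-, and 1.83% and 2.59% in Gcn2-/-. Igfbp5 and the summed levels of the muscle and the sinusoidal endothelial markers named above were all lowest in the Gcn2-/- groups. Not every endothelial marker followed its sum, since Stab2, Lyve1 and Dnase1l3 were not lowest in both Gcn2-/- groups. In Atf4-/- PBS and ASNase, Igfbp5 was 2.27 and 1.96 FPKM, and the muscle sums were 65.0 and 143. The part of either set of markers in the Igfbp5 value was not tested.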

How the data were processed

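Poly-A RNA libraries were made from liver and sequenced as single-end reads. Per the labels and the methods, TopHat with Bowtie placed the reads on mm10, Cufflinks and Cuffmerge built 1 set of transcripts, and Cuffdiff gave the levels. The values the authors deposited are FPKM, 1 per gene and group from 3 libraries together, with interval bounds in FPKM and a status; 0 value columns were left out, and 160 values had another status than OK. Values per library, and with them depth, replicate spread and p-values, were not used here.

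The difference of log2(FPKM + 0.1) was computed in 7 comparisons over the whole table. Eligible genes had the status OK and values above 0 in both groups and an FPKM over 3 in either. Called genes also had an absolute log2 difference over 1.5 and separate intervals, which stand in place of a q-value. The rule was tested on simulated data. Alternatives were pseudocounts of 1 and 0.01, median-ratio scaling, FPKM limits of 0 and 10, other interval conditions and a log2 limit of 1.

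All members were named, and of other gene lists the genes called in at least 1 comparison, and further genes that were chosen after their values were seen. Cell type markers are mostly given as sums. For each member the 3 genes with the smallest root mean square difference of centred log2 values were named. The members and lists were chosen with earlier results of these data known. Coordinates and gene models are from GENCODE (GRCm38, the build of mm10), matched by gene ID for all 10 members. Motifs were searched on both strands of 32851 RefSeq promoter windows. Python 3.11.15, numpy 2.4.6, pandas 2.3.3 and matplotlib 3.10.9 were used.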

Additional observations from a re-analysis of the deposited data

How the results depend on the processing

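The calls rest on separate intervals. With no condition on the intervals or with the combined interval (a difference over the root of the summed squared half-widths), 1 member, Igfbp1, was called higher in the ASNase response of Atf4-/-, and 1, Socs2, in Gcn2-/- against WT under PBS. With no condition on the intervals 1 member, Igfbp1, was called higher in Gcn2-/- against WT under ASNase, and 2, Socs2 and Igfbp1, in Atf4-/- against WT under ASNase. All other counts of called members stayed within 1.5 times under the alternatives tried. Of 107 values, 107 moved by less than their error (for the 7 medians of the members, by less than 0.1) with each pseudocount and with scaling. The error is the combined half-width of the intervals in log2 units. It was 0.85 to 3.81, while the scaling factors spanned 0.07, so the values could scarcely have moved by more. The largest move was 0.40, for Igfals in Atf4-/- with a pseudocount of 1. Scaling turned the sign of 3 differences that were near 0 and not called: Igfbp4 in the ASNase response of Atf4-/- (-0.02), Prlr in Gcn2-/- against WT under PBS (-0.00094) and Cish in Atf4-/- against WT under ASNase (-0.03). Leaving out single replicates was not run, because the table holds no value per library. No paired analysis was possible because the columns carry no replicate numbers. Among genes over 3 FPKM, half-widths of the intervals had medians of 51.3% to 54.2% of the value by group, and 127% at the widest among the members (Cish, median), so only large differences can be called.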

Other observations

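Of 10 genes that respond to fasting, insulin and glucocorticoids, 9 were eligible in either knockout after ASNase. In this and the next paragraph, the shares of all eligible genes called higher and lower were 0.76% and 0.121% in WT, 1.56% and 2.13% in Gcn2-/-, and 2.74% and 4.63% in Atf4-/-. In Gcn2-/- the clock and glucocorticoid target Per1 was called higher (4.77 and 18.1 FPKM, 1.90) and 0 were called lower. In Atf4-/- 0 were called higher and 2 lower, the glucose-6-phosphatase gene G6pc (154 and 40.8 FPKM, -1.91) and the glucocorticoid target Tsc22d3 (84.7 and 17.3 FPKM, -2.29). Pck1, which encodes the enzyme that opens gluconeogenesis, was 1317 and 557 FPKM there and was not called. None of 11 liver transcription factors was called in any of the 7 comparisons. Between strains, 0.354% to 2.59% of all eligible genes were called higher and 0.65% to 5.66% lower. Past the fold limit, with intervals that overlapped, were Bcl6, Onecut1 and Cux2. Bcl6, a repressor in liver, was at 4.14 (2.0 to 6.27) and 12.5 FPKM (6.24 to 18.8) in WT under PBS and ASNase (1.58) and at 13.8 FPKM in Atf4-/- PBS (1.71 against WT PBS). Under PBS, Onecut1 differed by 1.85 in Gcn2-/- against WT, and Cux2 by 1.77 in Gcn2-/- and 1.98 in Atf4-/-. Cebpb was 38.0 and 103 FPKM in Gcn2-/- under PBS and ASNase (1.44), under the fold limit used here. The paper reports this gene as significantly elevated in that comparison. Hnf4a lay between 145 and 213 FPKM, and Cebpa was 192 and 79.9 FPKM in Gcn2-/- and 151 and 64.9 FPKM in Atf4-/- under PBS and ASNase.

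Among 17 targets of the integrated stress response, after ASNase, 2 of 16 eligible genes were called higher in WT, 1 of 13 in Gcn2-/- and 7 of 14 in Atf4-/-. The gene of Gcn2-/- was Ddit4, which was also called in Atf4-/- with Asns, Atf3, Atf5, Chac1, Nupr1 and Trib3. Fgf21, a liver hormone known to reduce growth hormone signalling, was 2.14 (0.434 to 3.85) and 29.3 FPKM (14.6 to 43.9) in WT under PBS and ASNase, 8.31 and 0.782 in Gcn2-/- and 1.17 and 3.50 in Atf4-/-. It was called higher in WT and lower in Gcn2-/-. Trib3, a pseudokinase gene of this response, was 5.46 and 19.5 FPKM in WT and 3.63 and 150 FPKM in Atf4-/-, and was called higher in both. Of 7 Kupffer cell markers, Marco was called higher after ASNase in Gcn2-/- (3.80) and Atf4-/- (2.85), and Cd5l was called lower in Atf4-/- (-1.55). The median of the 7 was 0.05 in Gcn2-/-, with Clec4f at -2.08, and -1.10 in Atf4-/-, where 6 of 7 values were lower. The neutrophil marker S100a9 was called lower in Gcn2-/- (-4.41). The summed level of the 7 Kupffer cell markers was 149 to 311 FPKM over the 6 groups.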
